A study of Homo sapiens with 45 samples.

Results

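The regions described here are 8291 bins of 50 kb (414.55 Mb) in which lamin B1, H3K9me2 and H3K9me3 lay together in HCT116 cells that received a nontargeting siRNA. HCT116 is a human colon cancer cell line. Autosomes of the GRCh38 assembly were cut into 57494 bins, and a bin was a member when at least 50% of its bases lay in the deposited control domains of each of these 3 features and under 50% lay in control H3K27me3 domains. Members made up 14.4% of all autosomal bins and 48.5% of the 17078 bins with lamin B1. The control domain lists chose the members, so control coverage is a description here and carries no test.

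Lamins form a meshwork under the inner nuclear membrane, and the stretches of chromosome that touch it are called lamina-associated domains. Such domains are mostly gene-poor and silent. Dimethylation and trimethylation of histone H3 at lysine 9 mark repressed chromatin: H3K9me2 is laid down mainly by the G9a and GLP methyltransferases and is widespread at the nuclear periphery, whereas H3K9me3 is laid down mainly by the SUV39H and SETDB1 enzymes and covers repeats and clusters of zinc finger genes. H3K27me3, the mark excluded here, is the product of Polycomb repressive complex 2.

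The study compared cells given nontargeting siRNA with cells given siRNA against HNRNPK, which encodes an RNA- and DNA-binding ribonucleoprotein; both were used at 25 nM for 72 hours. Chromatin was immunoprecipitated for lamin B1 (3 control and 3 knockdown libraries), H3K9me3 (3 and 3), H3K27me3 (2 and 2) and H3K9me2 (3 control libraries). Each antibody and siRNA had 1 deposited domain list, so a difference between lists has no replicate check, and the read depth behind the lists is unknown. Gene counts came from 4 control libraries, labelled siNTC5, and 4 from knockdown cells. Replicates 1 and 2 of either group were TruSeq libraries, and replicates 3 and 4 used the Ligation kit. Another 2 control libraries, labelled Scramble, were purified with another kit and counted in tables of their own; they were used only as a side check. The labels do not say whether libraries came from separate cultures, so p-values measure the spread between these libraries, which may be technical. The cells are a bulk population, in which fewer expressing cells and less RNA per cell cannot be told apart.

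The target gene was low in every knockdown library. HNRNPK stood at 934, 967, 822 and 814 normalised counts (CPM, counts scaled to library size) in the control libraries and at 250.3, 223, 157 and 164 CPM in the knockdown libraries, with no overlap. This was 22.4% of the control level, a log2 fold change of -2.17 ± 0.06 (SE; edgeR adjusted p = 7.29e-15; two-sided exact permutation p = 0.0286, the smallest that 4 against 4 allows). Library totals ran from 14810376 to 23633851 counts in control and from 12107280 to 15255556 counts in knockdown libraries. Of 6 epithelial marker genes, 5 (EPCAM, CDH1, KRT8, KRT18 and KRT19) were at or above 1 CPM in control cells and VIL1 was below. Their summed level ran from 2721 to 3142 CPM in control and from 4380 to 5255 CPM in knockdown libraries. KRT18 went from 642 to 683 CPM in control to 1609 to 1814 CPM in knockdown libraries, and KRT8 from 1083 to 1267 to 1959 to 2555 CPM. KRT19 went the other way, from 609 to 953 CPM to 272 to 383 CPM. Of 8 markers of other cell types, 2 exceeded 1 CPM: COL1A1, at 44.1 to 73.6 CPM in control and 74.0 to 119 CPM in knockdown libraries, and DES, at 6.16 to 12.7 and 3.70 to 6.94 CPM. The leukocyte gene CD3E had no count in any of the libraries, and the summed level of the 8 markers ran from 52.6 to 86.9 CPM in control and from 79.6 to 127 CPM in knockdown libraries; the part of these differences in the results below was not tested.

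The deposited lists give regions by coordinates, and the sequences that bear on the results are promoters of member genes among the largest rises in RNA after HNRNPK siRNA, since few member genes had RNA at all. ZNF300P1, ZNF702P and MSR1, also among these rises, have none shown, and ZNF426, the smallest of them, is left out for length. Each is 300 bases, from 250 before to 50 after the start site in RefSeq (GRCh38.p14), written 5′ to 3′ on the strand of the gene. They lie at chr5:150904931-150905230 (minus strand) for ZNF300, chr19:12484767-12485066 (minus) for ZNF709, chr6:165663192-165663491 (minus) for PDE10A, chr14:80211455-80211754 (minus) for DIO2, chr19:12162846-12163145 (plus) for ZNF136 and chr19:52048789-52049088 (minus) for ZNF432. All start sites lay in member bins. For PDE10A and DIO2 the listed start lies inside the span of the gene, so other starts exist. Capitals mark exact matches, on either strand, to 4 short motifs. The TATA box was searched as TATAAA. The CCAAT box was searched by the letters of its name. The GC box was searched as GGGCGG. The CT element was searched as CCCTCCC. Overlapping matches were joined.
ZNF300: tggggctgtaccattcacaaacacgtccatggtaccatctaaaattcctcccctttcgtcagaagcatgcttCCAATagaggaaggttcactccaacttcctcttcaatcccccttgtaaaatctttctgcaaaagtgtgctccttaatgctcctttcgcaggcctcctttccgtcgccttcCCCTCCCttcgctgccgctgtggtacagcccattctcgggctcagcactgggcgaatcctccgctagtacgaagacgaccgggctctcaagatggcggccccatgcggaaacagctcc
ZNF709: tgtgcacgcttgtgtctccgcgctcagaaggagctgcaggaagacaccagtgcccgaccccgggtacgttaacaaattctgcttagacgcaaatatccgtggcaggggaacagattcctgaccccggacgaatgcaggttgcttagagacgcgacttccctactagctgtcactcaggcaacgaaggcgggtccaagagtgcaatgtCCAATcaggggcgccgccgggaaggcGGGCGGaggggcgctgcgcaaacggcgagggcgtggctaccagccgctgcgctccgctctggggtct
PDE10A: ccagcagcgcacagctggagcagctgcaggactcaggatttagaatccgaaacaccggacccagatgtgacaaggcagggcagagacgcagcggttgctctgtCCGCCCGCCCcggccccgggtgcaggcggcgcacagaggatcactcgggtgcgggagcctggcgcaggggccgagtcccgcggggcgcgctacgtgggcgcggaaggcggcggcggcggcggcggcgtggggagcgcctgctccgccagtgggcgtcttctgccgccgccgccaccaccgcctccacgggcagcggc
DIO2: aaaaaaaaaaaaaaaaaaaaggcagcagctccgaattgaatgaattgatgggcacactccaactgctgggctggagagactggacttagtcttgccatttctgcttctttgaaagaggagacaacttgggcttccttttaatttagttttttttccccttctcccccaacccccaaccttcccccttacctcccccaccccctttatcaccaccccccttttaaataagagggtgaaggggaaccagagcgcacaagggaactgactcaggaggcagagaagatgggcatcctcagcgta
ZNF136: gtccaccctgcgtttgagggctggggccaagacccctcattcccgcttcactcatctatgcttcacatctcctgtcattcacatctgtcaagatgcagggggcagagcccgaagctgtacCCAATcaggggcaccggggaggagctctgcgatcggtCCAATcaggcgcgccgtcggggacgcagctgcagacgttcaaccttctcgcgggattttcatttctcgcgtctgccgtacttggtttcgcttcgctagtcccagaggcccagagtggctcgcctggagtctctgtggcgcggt
ZNF432: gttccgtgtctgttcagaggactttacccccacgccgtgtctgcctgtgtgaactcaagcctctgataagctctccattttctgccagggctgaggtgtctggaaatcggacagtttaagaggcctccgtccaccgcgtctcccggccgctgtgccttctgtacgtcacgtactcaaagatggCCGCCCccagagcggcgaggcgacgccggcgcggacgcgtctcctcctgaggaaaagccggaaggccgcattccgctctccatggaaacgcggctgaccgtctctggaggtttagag
ZNF300 held 1 CCAAT box and 1 CT element, ZNF709 held 1 CCAAT box and 1 GC box, PDE10A held 2 overlapping GC boxes, ZNF136 held 2 CCAAT boxes, ZNF432 held 1 GC box and DIO2 held none of the 4. Of all 26246 autosomal promoters in the table, 12.0% held TATAAA, 35.4% CCAAT, 44.7% GGGCGG and 25.2% CCCTCCC on either strand. A match describes the letters in the window and is not evidence of a site. The number of CpG dinucleotides in these 6 promoters ranged from 3 in DIO2 to 38 in PDE10A.

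Member bins formed 279 unbroken runs with a median length of 900 kb, the shortest being 1 bin (10 runs) and the longest 13.65 Mb. The 138 runs of at least 1 Mb held 85.1% of member bins. The longest run, chr5:17600001-31250000, holds the classical cadherin genes CDH9, CDH10, CDH12 and CDH18, which encode calcium-dependent adhesion proteins, and PRDM9, the meiotic histone methyltransferase, among 11 protein-coding genes. Next came chr4:57400001-67300000 (9.9 Mb), with the adhesion receptor gene ADGRL3 and the ephrin receptor gene EPHA5, and chr21:17950001-25400000 (7.45 Mb), with NCAM2, a neural adhesion gene. All these runs are gene-poor, with 11, 4 and 3 protein-coding genes whose midpoint lies in the run.

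Members were spread over all 22 autosomes, but unevenly. They took 29.8% of the bins of chromosome 21, 28.2% of chromosome 18, 23.5% of chromosome 11 and 22.4% of chromosome 19, against 6.86% of chromosome 12 and 7.50% of chromosome 17. As a share of the lamin B1 bins they ranged from 29.2% on chromosome 12 to 82.9% on chromosome 19. Chromosome 19 is short and gene-dense, and most of its lamin B1 bins were of this kind.

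The rule left few bins near its limits. Control lamin B1 covered 99.6% of members completely, H3K9me2 99.2% and H3K9me3 99.4%, and 98.0% of members had no control H3K27me3 at all. In the 10 points of coverage just inside the limit there were 4 members for lamin B1, 7 for H3K9me2, 9 for H3K9me3 and 43 for H3K27me3; in the 10 points just outside there were 2, 7, 4 and 42 bins that met the other conditions. Mean knockdown lamin B1 coverage was 100.0% in the 43 members just inside the H3K27me3 limit and 92.6% in the 42 bins just outside it.

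Most member runs ended at chromatin that also carried H3K27me3. Of the 557 bins directly beside a run, 57.8% had lamin B1 and all 3 histone marks, 16.3% had no lamin B1, and 9.16% had lamin B1, H3K9me2 and H3K27me3. Across the 394 ends of the 197 runs of at least 10 bins, mean control H3K27me3 coverage was 8.83% in the last bin inside, 68.3% in the first bin outside and 80.7% in the second. H3K9me3 fell over the same distance from 97.4% to 71.9% and 41.1%, while lamin B1 fell more slowly, from 99.0% to 88.3% and 79.6%. The coverage inside the ends, and the drop of at least 1 feature just outside, follow from how members were chosen.

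**Figure D1:**
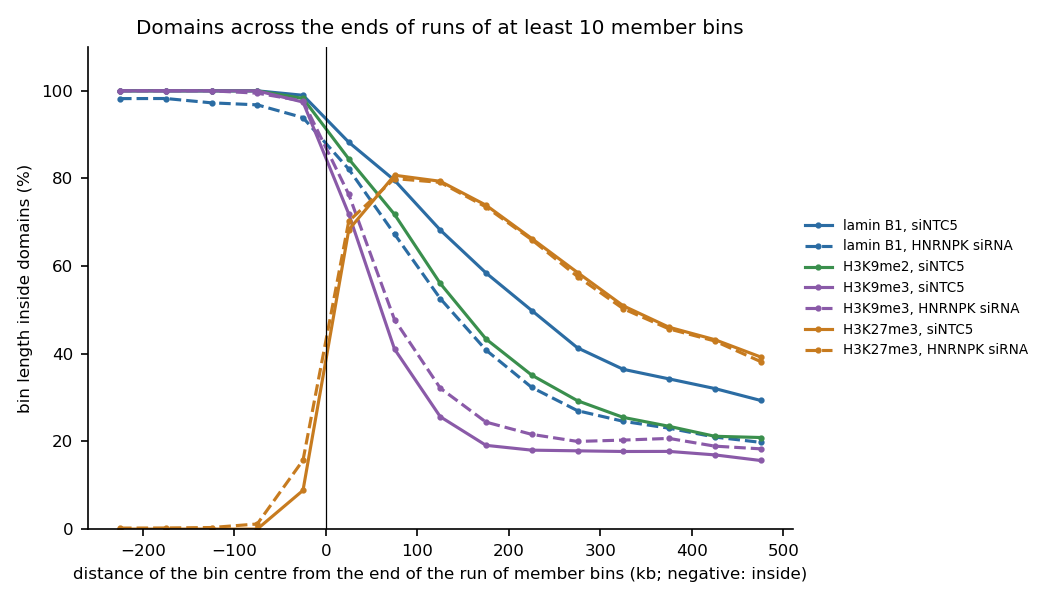
Mean share of each 50 kb bin inside domains (vertical axis, %) against the distance of the bin centre from the end of a run of member bins (horizontal axis, kb, negative values inside), over 394 ends; solid lines are siNTC5 lists and dashed lines HNRNPK siRNA lists. H3K27me3 rises from 8.83% to 68.3% across the end in the control list, a step partly set by the rule. Lamin B1 after knockdown lies below control at each distance shown.

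After HNRNPK siRNA nearly all of the member length still lay in lamin B1 domains. The knockdown lamin B1 list covered 98.0% of it, against 99.9% in the control list, which the rule had required to be high. At the level of bins, 8132 of 8291 (98.1%) were at least 50% covered, 8081 were covered completely and 132 had none. Knockdown H3K9me3 domains covered 99.8% of member length, with 9 bins under 50%. H3K27me3 domains covered 1.29% after knockdown and 0.498% in control cells, so the excluded mark remained scarce in the members. H3K9me2 was not profiled after knockdown in the lists used here.

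The other lamin B1 bins, sorted by the same limits, gave lower knockdown lamin B1 coverage. It was 95.5% in the 1356 bins with all 3 marks, 59.0% in the 2735 bins with H3K9me2 and H3K27me3, 16.9% in the 3250 bins with H3K27me3 alone and 18.6% in the 1025 bins with none of the marks. The 421 bins with other combinations, most of them with H3K9me3 (88.5% of their length in control) but little H3K9me2 (8.57%), were at 54.4%. Coverage above 95% was thus found in members and in the bins with all 3 marks. With 1 list per antibody and siRNA no test of these differences was possible. Control lamin B1 coverage also differed between classes, from 99.9% in members to 95.1% in bins with no mark. In the authors' deposited table the median score of the knockdown lamin B1 domain over a bin that kept lamin B1 was 1.58 for members, 1.49 for bins with all 3 marks and 1.02 for bins with H3K9me2 and H3K27me3; the unit of the score is not given in the sources used here.

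**Figure D2:**
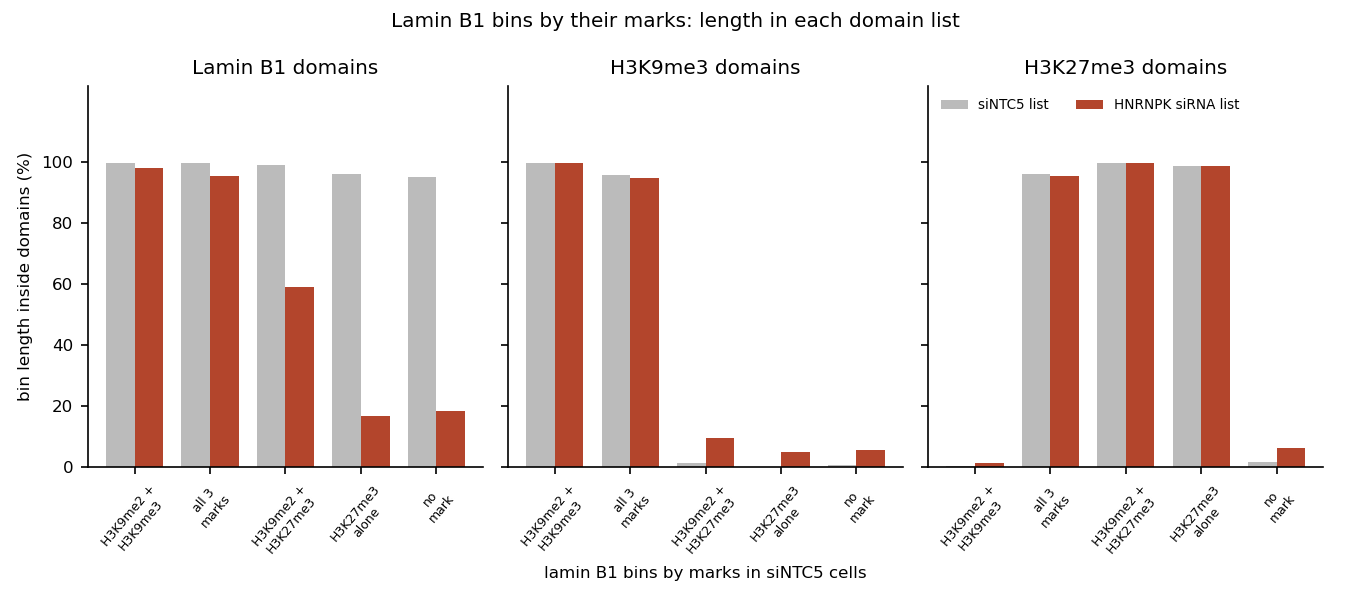
Share of bin length inside lamin B1, H3K9me3 and H3K27me3 domains (vertical axes, %) for lamin B1 bins grouped by their marks in siNTC5 cells; grey bars are the siNTC5 list and red bars the HNRNPK siRNA list, 1 list each. Members (H3K9me2 + H3K9me3) keep 98.0% in lamin B1 domains, whereas bins with H3K27me3 alone are at 16.9%.

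The 159 members with under 50% lamin B1 after knockdown, called lost here, were concentrated on a few chromosomes. Chromosome 19 held 44 of its 262 members in this class, chromosome 13 held 25, chromosome 22 held 22 of its 90, chromosome 1 held 17 and chromosome 14 held 15. Knockdown lamin B1 coverage of members was 75.1% on chromosome 22, 82.6% on chromosome 19, 92.2% on chromosome 13 and 95.7% on chromosome 14. On chromosome 22, 13 of the 22 lost members lay in 1 stretch that overlapped no RefSeq gene. On chromosomes 2, 4, 7, 11, 15, 16 and 20 no member was lost.

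**Figure D3:**
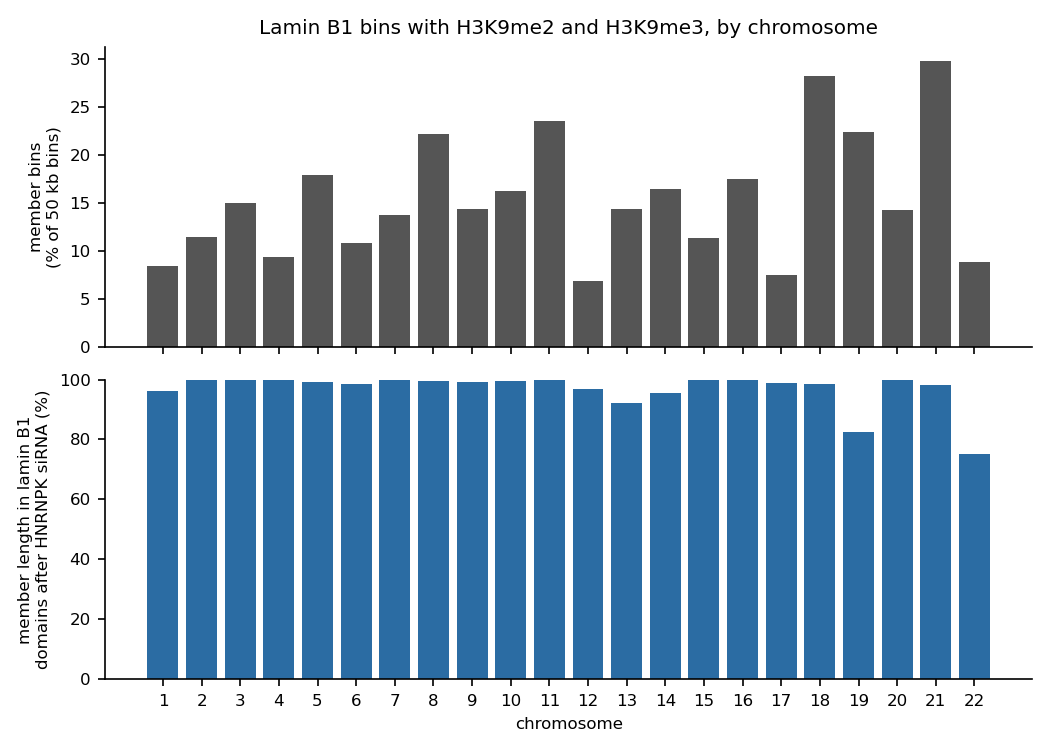
Members as a share of all 50 kb bins of each autosome (upper panel, %) and share of member length in lamin B1 domains after HNRNPK siRNA (lower panel, %). Chromosomes 21 and 18 have the highest shares of members, and chromosomes 22 (75.1%) and 19 (82.6%) the lowest lamin B1 coverage after knockdown.

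Lost members lay near the edges of control lamin B1 domains and in short runs. Their median distance to the domain edge was 117.5 kb, against 795 kb for members that kept lamin B1, and 44.7% against 2.24% lay within 100 kb of an edge. The control domains around them were also shorter, with a median of 790 kb against 3230 kb, and had a lower median score in the authors' deposited table, 0.629 against 1.25. In runs under 1 Mb, 112 of 1237 bins (9.05%) were lost; in runs of 1 to 5 Mb, 41 of 5249 (0.781%); in runs of at least 5 Mb, 6 of 1805 (0.332%). Of the 279 runs, 214 were covered completely after knockdown and 13 had no lamin B1 left. The lost members still lay in H3K9me3 domains for 97.7% of their length and in H3K27me3 domains for 0.566%.

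The longest stretches of lost members were of 2 kinds, with and without protein-coding genes. The longest, chr22:9950001-10600000 (650 kb), overlapped no RefSeq gene, and chr1:80500001-80950000 (450 kb) overlapped no protein-coding gene. Whether reads can be placed in the chromosome 22 stretch was not checked, so its loss of lamin B1 is uncertain. The 400 kb stretch chr19:12150001-12550000 held 9 protein-coding genes, all of the ZNF family: ZNF44, ZNF136, ZNF442, ZNF443, ZNF563, ZNF564, ZNF625, ZNF709 and ZNF799. At chr13:81600001-81950000 (350 kb) there was again no protein-coding gene. The other 350 kb stretch, chr19:43850001-44200000, held 13 ZNF genes, among them ZNF45, ZNF155 and ZNF221 to ZNF226. Lamin B1 coverage after knockdown was 0% in 4 of these 5 stretches and 2.22% in the one on chromosome 1, and H3K9me3 coverage after knockdown was at least 96.2%.

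H3K27me3 domains reached few members after knockdown, and the longest stretches with them kept lamin B1. In 91 members (1.10%) knockdown H3K27me3 covered at least 50%. The longest stretches were chr4:18850001-19200000 (350 kb, no protein-coding gene; H3K27me3 0% in control and 94.3% after knockdown) and chr14:98300001-98600000 (300 kb, no protein-coding gene; 0% and 100%). Among the next longest was chr14:78500001-78750000 (250 kb), in NRXN3, a presynaptic adhesion gene (2% and 98%). All 3 had 100% lamin B1 coverage after knockdown. Most of the other stretches were single bins, many of which already had 20% to 40% H3K27me3 coverage in control. The rule kept control coverage under 50%, so a small rise could carry such bins over that limit.

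The members were poor in protein-coding genes. They held 4493 RefSeq genes with at least 50% of the body in member bins, of which 679 were protein-coding, 1815 long noncoding RNAs, 1542 pseudogenes and 126 miRNAs. This is 1.64 protein-coding genes per Mb, against 6.65 over all autosomal bins, 1.83 in lamin B1 bins with all 3 marks and 2.35 in those with H3K9me2 and H3K27me3. No protein-coding gene overlapped 67.6% of members, against 44.3% of all bins. Among other lamin B1 bins it was 58.0% with all 3 marks, 53.2% with H3K9me2 and H3K27me3 and 66.5% with other combinations. Long genes were frequent: 12.1% of the protein-coding genes spanned over 500 kb, against 1.58% of all autosomal ones. Other lamin B1 bins shared this in part. The share was 8.06% with all 3 marks, 7.45% with H3K9me2 and H3K27me3 and 4.94% with H3K27me3 alone. Outside lamin B1 bins it was 0.737%.

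A few large families gave many of the protein-coding genes in members. Zinc finger genes named ZNF with a number, which mostly encode DNA-binding transcription factors, gave 162 of 467, and 142 of the 162 lay on chromosome 19. Olfactory receptor genes, which encode odorant receptors of the nasal epithelium, gave 109 of 389, 53 of them on chromosome 11. Neural adhesion genes such as CNTN5, LRRTM4, NRXN3 and ROBO1 gave 25 of 60, cadherins and protocadherins 22 of 86, and neurotransmitter receptor genes such as GABRA2 and CHRM3 13 of 66. Over all autosomal protein-coding genes the share in members was 3.55%. Ion channel subunits gave 8 of 133, solute carriers 2 of 382 and cytochrome P450 and UGT genes 1 of 77. No member held any of 28 taste receptor, 33 serpin or 45 beta-defensin genes, nor any of 27 genes for H3K9 methylation and tethering to the lamina.

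Most of these genes had no RNA reads in HCT116. Of 1377 member names in the count table, 1077 (78.2%) had 0 counts in all 8 libraries, against 22.8% of all autosomal names, and the other 300 had at least 1 count. In control libraries 6.54% of member names had a mean of at least 1 CPM (6.25% to 6.54% over single libraries), against 47.1% of all autosomal names. The share was 4.08% in lamin B1 bins with all 3 marks and 2.74% in those with H3K9me2 and H3K27me3. After knockdown 7.12% of member names had a mean of at least 1 CPM.

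The families differed in how silent they were. Among olfactory receptors 106 of 107 names had no count, and among cadherins and protocadherins 21 of 22. Neural adhesion genes had no count for 18 of 25 names, and none of the 25 entered the test. Of 13 neurotransmitter receptors, 10 had no count. Zinc finger genes were the exception: 54 of 161 names had no count, and 71 passed the filter on low counts.

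Only 102 member names (7.41%) passed the filter and were tested, against 50.5% of autosomal names. Of these 102, 71 were ZNF genes, 76 lay on chromosome 19, and 91 were protein-coding. The counts that follow therefore speak for the few genes with RNA, mostly ZNF genes on chromosome 19, and not for all 1377 names. The filter asked for at least 0.665 CPM in 4 libraries. ZNF300P1, ZNF300, ZNF709, DIO2, PDE10A, MSR1, RGPD4, ZNF154, ZNF155 and ZNF506 met this in all knockdown but not in all control libraries. These 10 passed through the group where they were high, so they had to differ, and their values below are a description. Near-identical ZNF genes can share reads, and how the counting treated reads with several matches or the strand is not given in the sources used here, so values of single ZNF genes and of genes with antisense or overlapping partners are uncertain.

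RNA of the tested member genes was mostly higher after HNRNPK siRNA. Of 102 genes, 64 rose and 6 fell at an adjusted p under 0.05 (edgeR quasi-likelihood test, Benjamini-Hochberg over 13933 genes), and 32 were not called. The 64 include the 10 genes that passed the filter through the knockdown group; of the 87 at the filter level in all 8 libraries 54 rose and 6 fell. Over all tested genes 35.5% rose and 36.1% fell. At a change of at least 2-fold, 22 members rose and 0 fell, where 7.47% and 8.28% of all tested genes did. The 22 include ZNF300P1, ZNF300, ZNF709, PDE10A, DIO2, MSR1 and ZNF154, which passed through the knockdown group. The median log2 fold change was 0.50 in the 102 members, 0.45 in the 87 and -0.0042 over all tested genes. In 56 members every knockdown library lay above every control library (28.5% of all genes), and in 4 every one lay below (28% of all genes). The 56 include the genes just named and ZNF506, which also passed through the knockdown group. Summed counts of member names made up 0.0929%, 0.0987%, 0.0965% and 0.0986% of the counts in control libraries and 0.134%, 0.141%, 0.133% and 0.125% in knockdown libraries, with no overlap.

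Counts for the other kinds of lamin B1 bins stand beside these. Among lamin B1 bins with all 3 marks 9 of 11 tested genes rose and 1 fell (median log2 fold change 0.57), and among those with H3K9me2 and H3K27me3 22 of 32 rose and 1 fell (median 0.97). Among those with H3K27me3 alone 60 of 135 rose and 30 fell (median 0.30). Outside lamin B1 bins 4524 of 12900 genes rose and 4759 fell. No test of a difference between these classes was made.

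ZNF genes carried most of the rise. Of the 71 tested in members, 51 rose, 1 fell and 19 were not called, with a median log2 fold change of 0.65. The 51 include ZNF300, ZNF709, ZNF154, ZNF155 and ZNF506, which passed the filter through the knockdown group. ZNF genes outside members also rose more often than they fell: 46 rose and 9 fell of 86 on chromosome 19 (median 0.32), and 89 rose and 35 fell of 180 on other chromosomes (median 0.20). The other 31 tested member genes split into 13 higher, 5 lower and 13 not called, with a median of 0.10. The 13 higher genes include ZNF300P1, PDE10A, DIO2, MSR1 and RGPD4, which also passed through the knockdown group. These 31 include zinc finger genes whose names fall outside the ZNF-number list, such as ZNF585A and ZFP14.

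**Figure D4:**
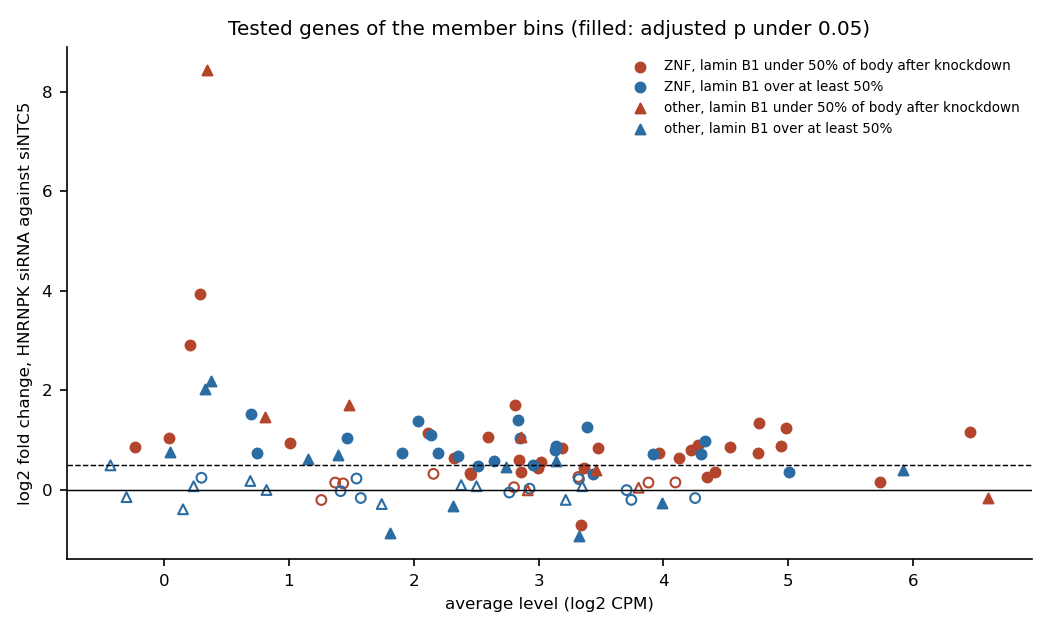
Log2 fold change after HNRNPK siRNA (vertical axis) against average level (horizontal axis, log2 CPM) for the 102 tested member genes; circles are ZNF genes and triangles other genes, red marks lamin B1 over under 50% of the body after knockdown and blue at least 50%, filled points passed adjusted p under 0.05, and lines show the median of all genes (solid) and of members (dashed). Most filled points lie above 0 in both colours.

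On chromosome 19 genes rose in several clusters of ZNF genes, given here for the runs with at least 4 tested genes. For comparison, 35.5% of all tested genes rose, and 53.5% of the tested ZNF genes of chromosome 19 outside members. In the 350 kb run at chr19:43850001-44200000, 7 of 9 tested genes rose and 0 fell, and lamin B1 covered 0% of the run after knockdown. In the run chr19:57450001-57750000, 8 of 9 rose and lamin B1 covered 45.0%. At chr19:51850001-52150000, 6 of 7 rose with a median log2 fold change of 1.26, and lamin B1 covered 66.7%. The run chr19:52950001-53800000 had 7 of 8 higher and 64.7% lamin B1. At chr19:11950001-12550000, 5 of 7 rose and lamin B1 covered 26.7%, and at chr19:57850001-58200000, 4 of 6 rose and it covered 84.3%. Counts were 6 of 13 at chr19:36300001-37800000 (lamin B1 78.0%) and 4 of 8 at chr19:21350001-24350000 (96.8%). At chr19:9300001-9550000, 2 of 4 rose and 1 fell, and lamin B1 covered 36.0%. H3K9me3 still covered at least 97.6% of each of these runs. The genes that rose include ZNF155, ZNF154 and ZNF709, which passed the filter through the knockdown group.

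Members with tested genes and members that lost lamin B1 coincided on chromosome 19. There, 77 of 262 members overlapped a tested gene and 36 of these 77 (46.8%) were lost, against 5 of 92 (5.43%) with an untested protein-coding gene and 3 of 93 (3.23%) with neither. On the other chromosomes 5 of 203 members with a tested gene (2.46%) were lost, 9 of 2328 (0.387%) with an untested protein-coding gene and 101 of 5498 (1.84%) with neither. Read from the genes, 48 of the 95 member names with lamin B1 over under 50% of the body after knockdown were tested (50.5%), against 54 of 1282 (4.21%) with at least 50%. Neighbouring bins and genes share domains, so these counts are not independent and carry no test.

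The rise of RNA was seen with and without lamin B1 after knockdown. Over all tested genes 35.5% rose and 36.1% fell, with a median log2 fold change of -0.0042. Of the 48 tested genes with lamin B1 over under 50% of the body, 35 rose and 2 fell (median log2 fold change 0.64). Of the 54 with at least 50%, 29 rose and 4 fell (median 0.43). Genes that passed the filter through the knockdown group, and so had to rise, are in both groups. They are ZNF300P1, ZNF300, ZNF709, MSR1, ZNF154, ZNF155 and ZNF506 among the 48, and PDE10A, DIO2 and RGPD4 among the 54. Among ZNF genes of chromosome 19, 29 of 39 without lamin B1 rose (median 0.63) and 19 of 27 with lamin B1 rose (median 0.69). The 29 include ZNF709, ZNF154, ZNF155 and ZNF506, which passed through the knockdown group. Outside members 46 of 86 ZNF genes of chromosome 19 rose (median 0.32). No difference between any of these groups was tested.

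The largest rises were of genes near 0 in control cells. ZNF300P1, a transcribed pseudogene at chr5:150930436-150946584, had no count in any control library and 29 to 42 counts in each knockdown library. Its level was 2.77, 2.15, 3.12 and 2.88 CPM after knockdown. Pooled over the knockdown libraries and without TMM scaling it was 2.68 CPM, at least 65.3-fold higher than a floor of 3 counts over the control group (0.0410 CPM). The adjacent ZNF300 (chr5:150894399-150904980), a zinc finger gene, stood at 0.0593, 0.125, 0.200 and 0.219 CPM in control libraries and at 2.44, 2.97, 2.36 and 1.73 CPM after knockdown. This is a log2 fold change of 3.93 ± 0.37 (SE). It was 3.22 in Ligation libraries alone, 4.70 in TruSeq libraries alone and 4.86 with Scramble libraries added as controls. Both lay in the 150 kb run chr5:150850001-151000000, which had 0% lamin B1 and 100% H3K9me3 after knockdown.

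ZNF709 (chr19:12461184-12484816) and ZNF136 (chr19:12163096-12189871) lay in the same run on chromosome 19, in the longest lost stretch that held protein-coding genes. ZNF709 stood at 0.296, 0.209, 0.133 and 0.438 CPM in control libraries and at 1.85, 2.60, 2.28 and 1.57 CPM after knockdown, a log2 fold change of 2.90 ± 0.35. ZNF136 rose from 3.38, 3.47, 4.06 and 2.90 CPM to 10.9, 13.4, 10.7 and 10.1 CPM, a log2 fold change of 1.72 ± 0.14 (edgeR adjusted p = 2.13e-09). For both genes all knockdown libraries lay above all control libraries, which was a condition of their choice. ZNF702P, a pseudogene at chr19:52968251-52993531, rose from 0.949, 1.55, 1.40 and 1.42 CPM to 3.23, 4.38, 5.14 and 5.27 CPM (log2 fold change 1.72 ± 0.21; edgeR adjusted p = 5.02e-07) and also lay outside lamin B1 domains after knockdown.

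Other ZNF genes rose inside bins that kept lamin B1. ZNF432 (chr19:52031378-52048838) stood at 0.949, 0.668, 1.13 and 0.657 CPM in control libraries and 2.18, 3.19, 2.19 and 2.06 CPM after knockdown, with a log2 fold change of 1.53 ± 0.27 (edgeR adjusted p = 5.07e-05). ZNF426 (chr19:9523223-9538645) stood at 4.21, 2.96, 4.40 and 4.93 CPM and at 11.2, 10.8, 10.8 and 10.3 CPM, with a log2 fold change of 1.41 ± 0.14 (edgeR adjusted p = 4.41e-08). Lamin B1 covered 100% of both gene bodies after knockdown.

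Among genes outside the ZNF family, 3 were among the largest rises. PDE10A (chr6:165327289-165988052) encodes a phosphodiesterase that breaks down cyclic nucleotides, and 64.0% of its body lay in members. It stood at 0.356, 0.251, 0.600 and 0.712 CPM in control libraries and at 2.83, 1.86, 1.85 and 1.90 CPM after knockdown (log2 fold change 2.19 ± 0.33). The log2 fold change of PDE10A was 1.48 in Ligation libraries alone and 2.97 in TruSeq libraries alone. DIO2 (chr14:80197526-80231057), the deiodinase that activates thyroid hormone, stood at 0.415, 0.501, 0.533 and 0.493 CPM and at 2.44, 1.71, 2.19 and 1.65 CPM (log2 fold change 2.03 ± 0.29). The bin at chr14:80200001-80250000, which holds most of DIO2, went from 0% to 90% H3K27me3 coverage and stayed at 100% lamin B1. MSR1, a macrophage scavenger receptor gene on chromosome 8, stood at 0.949, 0.501, 1.40 and 1.04 CPM and at 2.57, 2.45, 2.53 and 2.80 CPM (log2 fold change 1.47 ± 0.26). Control and knockdown libraries did not overlap for any of these 3 genes, which was a condition of their choice.

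Of the 102 tested member genes, 4 fell with complete separation of the libraries and 56 rose so, against 28% and 28.5% of all tested genes. The 56 include genes that passed the filter through the knockdown group. Separation was a condition for naming a gene, and 3 of the 4 are described here. ABCA11P, a transcribed pseudogene at chr4:425435-474209 that overlaps ZNF721 and has 50.4% of its body in members, fell from 13.5, 13.8, 12.1 and 10.3 CPM to 8.44, 6.31, 5.73 and 5.69 CPM (log2 fold change -0.92 ± 0.12; edgeR adjusted p = 9.34e-07). DUXAP8, a pseudogene on chromosome 22, fell from 4.15, 3.67, 4.80 and 4.32 CPM to 3.10, 2.45, 1.60 and 1.98 CPM (log2 fold change -0.86 ± 0.20; edgeR adjusted p = 0.000786). In TruSeq libraries alone its adjusted p was 0.137. ZNF559, the single ZNF member gene that fell, stood at 12.3, 12.7, 11.8 and 11.5 CPM and at 7.71, 7.35, 8.01 and 6.43 CPM (log2 fold change -0.71 ± 0.11; edgeR adjusted p = 7.19e-06); it overlaps the readthrough gene ZNF559-ZNF177.

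Of the 5 member genes with the most counts, 3 rose with no overlap between libraries, as did 28.5% of all tested genes. ZNF587 (chr19:57849859-57865117) rose from 51.3, 55.3, 56.1 and 55.5 CPM to 117, 132, 121 and 120.2 CPM, a log2 fold change of 1.17 ± 0.05 (edgeR adjusted p = 1.1e-12), and had 0% lamin B1 over its body after knockdown. QKI, an RNA-binding protein gene on chromosome 6, rose from 48.7 to 55.7 CPM in control libraries to 66.5 to 73.9 CPM (log2 fold change 0.39 ± 0.06; edgeR adjusted p = 4.46e-06), though with Scramble libraries added as controls the adjusted p was 0.253. ZNF875 rose from 24.1 to 32.1 CPM to 32.9 to 38.3 CPM (log2 fold change 0.37 ± 0.09; edgeR adjusted p = 0.000802), and in Ligation libraries alone the adjusted p was 0.162. ZWINT, a kinetochore gene, stood at 84.6 to 128 CPM in control and 74.9 to 105 CPM in knockdown libraries, and ZNF160 at 40.9 to 58.2 and 51.2 to 62.1 CPM. Libraries overlapped for both, with edgeR adjusted p = 0.0178 for ZWINT (log2 fold change -0.16 ± 0.06) and 0.0373 for ZNF160 (0.16 ± 0.06). Leaving out control replicate 2 gave adjusted p = 0.101 for ZWINT and 0.184 for ZNF160.

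**Figure D5:**
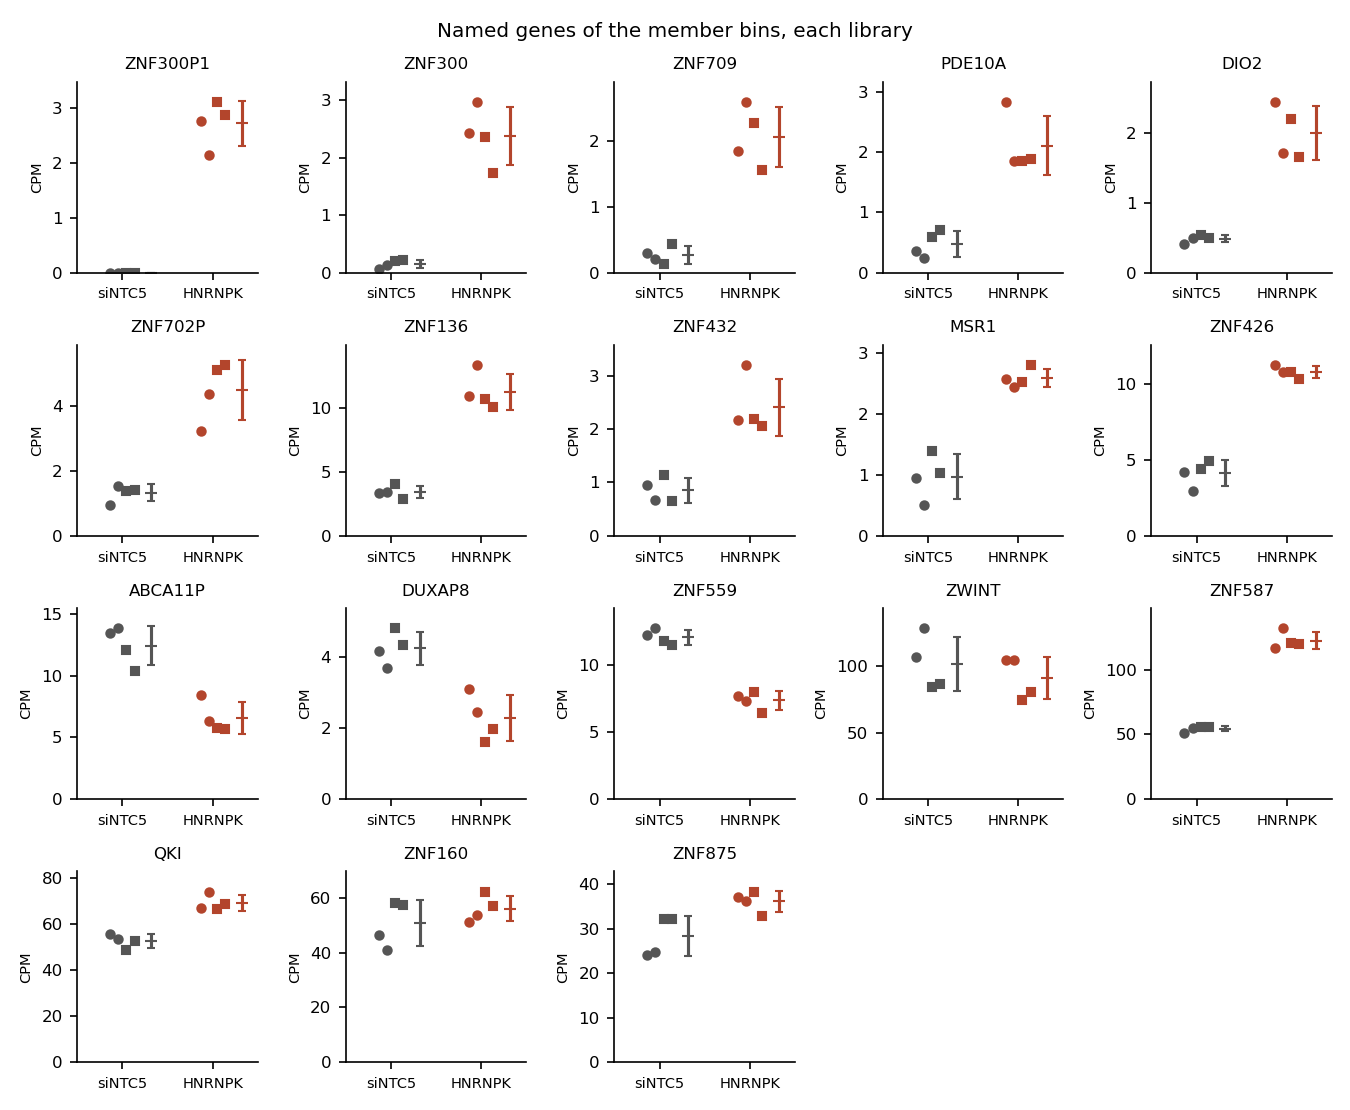
CPM (vertical axes, each starting at 0) of 18 member genes in each siNTC5 (grey) and HNRNPK siRNA (red) library; circles are TruSeq and squares Ligation libraries, and bars show mean and SD, n = 4. The 10 risers, from ZNF300P1 to ZNF426, and the 3 fallers, from ABCA11P to ZNF559, were chosen for having no overlap between groups. ZWINT and ZNF160, chosen by level alone, overlap.

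The Scramble libraries gave a check against other controls. Of 61 member genes that rose and were listed in their tables, 58 (95.1%) had all 4 knockdown libraries above both Scramble libraries, against 85.1% of all genes that rose. The 61 include ZNF300P1, ZNF300, ZNF709, PDE10A, DIO2 and MSR1, which passed the filter through the knockdown group, so the 95.1% is a description. Of 6 that fell, 3 lay below both, against 63.1% of all genes that fell. ZNF300P1 and ZNF300 had no count in either Scramble library, and ZNF136 stood at 3.51 and 2.98 CPM there. The fallers moved both ways. ABCA11P stood at 8.90 and 8.22 CPM in Scramble, 10.5 to 14.0 CPM in siNTC5 and 5.51 to 8.39 CPM in knockdown libraries. ZNF559 stood at 7.97 and 8.87 CPM, 11.7 to 12.9 CPM and 6.22 to 7.85 CPM in the same order. For DUXAP8 the values were 8.66 and 7.47 CPM, 3.72 to 4.86 CPM and 1.57 to 3.08 CPM. The Scramble libraries differ from the others in purification and table, so these values set levels beside each other and carry no test.

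Promoters of protein-coding genes in member bins had fewer CpG than protein-coding promoters over all autosomes, and most of these genes were not tested for RNA. Of the 543 protein-coding genes in the promoter table whose start lay in a member bin, the median promoter had 11 CpG and 55.0% G and C, against 22 CpG and 63.0% over all 15101 protein-coding genes. Low CpG was not particular to members. The median was 8.5 CpG for 100 promoters of lamin B1 bins with all 3 marks. It was 5 for 267 promoters of those with H3K9me2 and H3K27me3. The 78 whose gene was tested had a median of 20 CpG and 96.2% had at least 10; the 465 not tested had a median of 9, and 48.4% had at least 10. Over all autosomes promoters of tested protein-coding genes had a median of 26 CpG and 88.2% had at least 10, and those not tested had a median of 8 and 44.2%. Untested member promoters thus lay close to untested promoters in general, and tested ones had a lower median than tested ones in general. TATAAA was held by 20.4% of the member promoters of untested and 3.85% of those of tested genes, against 17.4% and 5.66% over all autosomal protein-coding genes. Of the 142 ZNF promoters in member bins 54.2% held CCAAT and 58.5% GGGCGG, against 46.1% and 68.8% of ZNF promoters elsewhere.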

How the data were processed

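The members and gene lists were chosen with earlier results of these data known. The authors deposited 7 lists of ChIP domains with a score per domain; bcl2fastq 2.20, fastp 0.23.2, Bowtie2 2.5.1, deepTools 3.1.3 and hg38 are named in the submitters' processing notes, while the domain caller, the pooling of replicates and the unit of the score are not given in the sources used here. The authors deposited whole-number counts per gene symbol, not normalised; STAR 2.7.1a, featureCounts, Subread 2.0.6, hg38 and, for the Scramble libraries, hg19, hg38 and DESeq2 are named in the submitters' processing notes.

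Bins, runs and domain coverage were computed by base in Python 3.11.15 and checked on simulated data. Genes were placed with RefSeq positions (GRCh38.p14; 97.6% of 28278 names matched) and belonged to members when at least 50% of the body lay in member bins. The filter was filterByExpr, the scaling TMM, and the test the quasi-likelihood test of edgeR 4.0.16 (limma 3.58.1, R 4.3.3) with library kit as a covariate, Benjamini-Hochberg adjusted over 13933 genes; the script was tested on simulated counts. CPM are TMM-normalised, except for shares of names at a level, markers and Scramble values. Named were the 10 largest rises and falls that passed an adjusted p under 0.05, had a mean log2 CPM not under 0 and showed no overlap of libraries (4 falls met this; some items that the rule names are not reported here), the 5 genes with the highest control CPM, tested members of family lists (ZNF genes as counts), HNRNPK, the 3 longest runs, the 5 longest stretches without lamin B1 and the 3 longest with H3K27me3 after knockdown. ZNF585A, ZFP14 and single members of families were named after their values were seen. Replicate numbers are shared by the groups: deviations from the group means correlated across genes with r = 0.10, 0.42, 0.34 and 0.27 for replicates 1 to 4, above 0.1 in each, and with 0.058 and 0.009 within the 2 kits once kit was removed, so the block was run as an alternative. No 2 libraries were identical. Alternatives covered the rule's limits, bins, domain scores and lengths, normalisation, filters, covariates, libraries, the DESeq2 1.42.0 Wald test and gene assignment; assignment by gene start was added after the data were seen.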

Additional observations from a re-analysis of the deposited data

Results flagged for a closer look

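For 3 of the 42 groups of 4 libraries examined (named genes, HNRNPK and the summed share of member counts, in control and in knockdown), 1 library lay far from the other 3 by Dixon's criterion at 95%; chance gives about 1 in 20. PDE10A stood at 2.83 CPM in HNRNPK siRNA replicate 1, with the others between 1.85 and 1.90 CPM. ZNF432 stood at 3.19 CPM in HNRNPK siRNA replicate 2, with the others between 2.06 and 2.19 CPM. ZNF587 stood at 51.3 CPM in siNTC5 replicate 1, with the others between 55.3 and 56.1 CPM. Control and knockdown libraries did not overlap for any of these 3 genes, which for PDE10A and ZNF432 was a condition of their choice.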

How the results depend on the processing

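Member length (360.7 to 416 Mb) and its share in knockdown lamin B1 (97.8% to 98.8%), H3K9me3 (99.7% to 99.9%) and H3K27me3 domains (0.940% to 1.67%) stayed close to the reported values under all 8 alternatives of limit, bin, score and domain length. With a fold limit of 2, 22 member genes rose and 0 fell, and the 22 include genes that passed the filter through the knockdown group. The 6 lower calls became 2 with TruSeq libraries alone, 3 with upper quartile normalisation, 11 with any overlap with a member bin, 3 with the whole body in member bins and 2 with the gene start in a member bin. Leaving out 1 library at a time gave 57 to 65 higher and 4 to 6 lower calls and a median log2 fold change of 0.48 to 0.52. That median was 0.61 with TruSeq libraries alone, 0.87 with no filter on low counts (300 genes) and 0.59 with the gene start in a member bin. With the replicate block in place of kit, 67 members were called, all 67 also called before; it changed no call of the genes described here. The share of member names at or above the level in control was 9.73% at 0.1 CPM, 2.03% at 10 CPM, 7.61% with any overlap and 5.63% with the whole body. The log2 fold change of ZWINT was 0.20 with Scramble libraries added as controls, against -0.16; the cause was not tested. ZNF160 lost its call under 9 of 19 alternatives (adjusted p 0.0154 to 0.681 over all of them). Domain lists had 1 value per antibody and siRNA, and 1077 member names without counts could not be tested.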
